A study of Bos taurus with 22 samples.

Results

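miR-126 was followed in bovine plasma through the reads of its 2 mature arms, bta-miR-126-5p and bta-miR-126-3p, written here without the species prefix. They were taken by name from the deposited read count table, where they are 2 of 844 mature miRNAs, and both were among the 195 miRNAs abundant enough to be tested. Plasma of the jugular vein, collected with EDTA, came from 11 Holstein-Friesian heifers on Day 60 of pregnancy and from the same 11 heifers on Day 0, the day of insemination, which gave 22 small RNA libraries. The heifers had never been inseminated before. Their oestrus was synchronised, they were inseminated at oestrus, and all of them were pregnant on Day 60. Every Day 60 sample was taken after the Day 0 sample of its heifer, and no non-pregnant heifer was sampled on Day 60. Pregnancy, elapsed time, the oestrus of Day 0 and the synchronisation before it thus cannot be told apart.

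A microRNA is cut from a hairpin, and either arm of the hairpin can be loaded into the silencing complex. miR-126 is the best-known miRNA of endothelial cells. It lies in an intron of EGFL7, a gene of the vascular wall, and in mouse and zebrafish its loss impairs the integrity of vessels. In human and mouse the 3p arm restrains SPRED1 and PIK3R2, inhibitors of VEGF signalling, and the 5p arm, formerly called miR-126*, acts on DLK1 in endothelial repair. Platelets and blood progenitors hold miR-126 as well, so plasma can receive it from several cell types. The deposited table places miR-126-5p on the plus strand of chromosome 11 of bosTau4 from 108009400 to 108009420 and miR-126-3p from 108009438 to 108009458, with 17 bases between them. No other listed miRNA lies within 10000 bases of them. In the RefSeq annotation of a later assembly, ARS-UCD2.0, MIR126 lies inside EGFL7.

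Total miRNA reads ran from 304117 to 12775451 per Day 60 library and from 1912290 to 6839128 per Day 0 library. The shallowest was the Day 60 library of heifer 17, with 1312 reads of miR-126-5p and 176 of miR-126-3p, while every other library had at least 11357 and 827. Levels are given as RPMM, the reads of a miRNA scaled to a common total of all miRNA reads in each library (reads per 1e6). The ratio of miR-451 to miR-23a, which the study used as a sign of haemolysis, had a median of 8.56 on Day 60 (4.36 to 27.7) and of 1.83 on Day 0 (0.935 to 13.4), counted in reads. Both of its terms differed between the days, since miR-451 was higher on Day 60 (log2 fold-change 0.79, edgeR FDR 0.0425) and miR-23a was lower (log2 fold-change -1.18, edgeR FDR 0.00837), so the ratio does not measure red cell RNA alone.

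miR-126-5p was an abundant plasma miRNA on both days. On Day 60 its lowest level was 1777 RPMM in heifer 29, its median was 7677 and its highest level was 13256 in heifer 24. On Day 0 the lowest level was 4442 RPMM in heifer 12, the median was 8494 and the highest was 14108 in heifer 26. The days overlapped: no Day 60 level exceeded the highest of Day 0, and only heifers 11, 12, 17 and 29 had Day 60 levels under the lowest of Day 0. By reads, the arm held ranks 19 to 47 among all miRNAs of a Day 60 library and ranks 21 to 33 on Day 0, with a median of 27 on each day.

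miR-126-3p was less abundant, by about an order of magnitude in reads. Its Day 60 levels ran from 139 RPMM in heifer 29 through a median of 579 to 1307 in heifer 24. Day 0 levels ran from 359 RPMM, again in heifer 29, through a median of 883 to 1105 in heifer 17. Heifers 24 and 28 had the highest Day 60 levels of this arm, 1307 and 1124 RPMM, above every Day 0 library, and heifer 29 alone was below every Day 0 library. It held ranks 60 to 128 in Day 60 libraries and ranks 67 to 104 in Day 0 libraries. Of all miRNA reads in a library, the arms together held 0.81 ± 0.416% on Day 60 against 0.962 ± 0.357% on Day 0 (SD, n = 11 each).

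**Figure D1:**
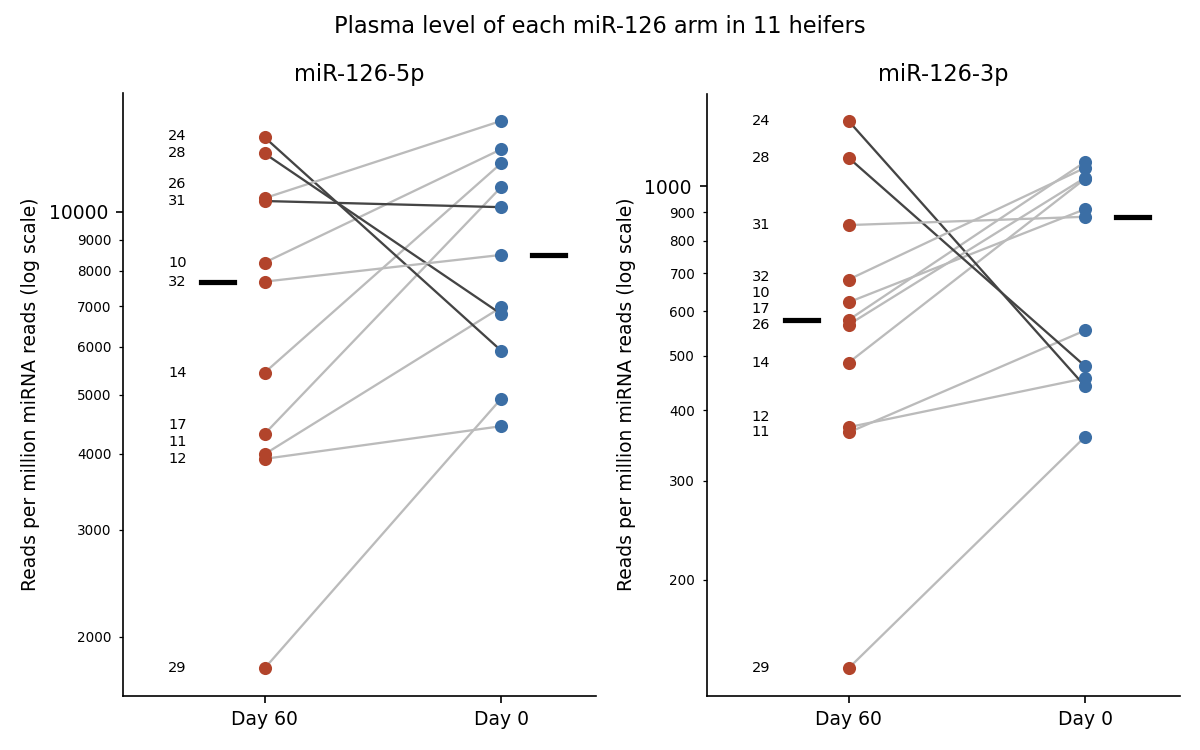
Level of miR-126-5p (left) and miR-126-3p (right) in RPMM, on a log axis. Points are libraries, lines join the 2 libraries of a heifer (dark where Day 60 is higher), black bars are medians, and numbers at the left name the heifer of each Day 60 point. Heifers 24 and 28 stand out with dark lines in both panels, and heifer 29 has the lowest Day 60 level, 1777 RPMM of miR-126-5p and 139 of miR-126-3p.

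Both arms varied more between heifers than most plasma miRNAs. The CV of miR-126-5p was 51.6% on Day 60 and 37.4% on Day 0, and that of miR-126-3p was 52.7% on Day 60 and 39.2% on Day 0. Over the 195 tested miRNAs the median CV was 38.2% on Day 60 and 29.7% on Day 0. The highest level of miR-126-5p was 7.46 times the lowest on Day 60 and 3.18 times the lowest on Day 0. For miR-126-3p these ratios were 9.38 on Day 60 and 3.08 on Day 0. Heifer 29 decided the wider range: without it, the Day 60 ratios were 3.38 for miR-126-5p and 3.58 for miR-126-3p, and the Day 60 CVs were 44.1% and 44.8%.

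The within-heifer change of miR-126 differed in direction from heifer to heifer. Its largest rise in RPMM, in heifer 24, was 2.24 times for miR-126-5p and 2.96 times for miR-126-3p. In RPMM, miR-126-5p was lower on Day 60 than on Day 0 in 8 of 11 heifers and miR-126-3p in 9 of 11. Heifer 24 had 13256 RPMM of miR-126-5p on Day 60 against 5911 on Day 0, and 1307 RPMM of miR-126-3p on Day 60 against 441 on Day 0. Heifer 28 had 12469 RPMM of miR-126-5p on Day 60 against 6791 on Day 0, with 1124 and 479 RPMM of miR-126-3p. These were the only 2 heifers in which both arms were higher on Day 60 in RPMM. At the other end, heifer 29 had 1777 RPMM of miR-126-5p on Day 60 against 4931 on Day 0, and heifer 17 had 4314 on Day 60 against 10983 on Day 0. The remaining heifers lay between these, with Day 60 over Day 0 ratios of miR-126-5p from 0.453 in heifer 14 to 1.02 in heifer 31.

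No change of miR-126 between the days passed the test. Reads were scaled by TMM, which corrects library totals for shifts in a few abundant miRNAs, and tested with edgeR's quasi-likelihood test with heifer as a block. FDR is the Benjamini-Hochberg adjusted p over the 195 tested miRNAs, with a threshold of 0.05. For miR-126-5p the log2 fold-change was -0.18 with an SE of 0.22 (edgeR FDR 0.531), and on TMM-normalised reads 5 heifers had more of it on Day 60 and 6 had less. For miR-126-3p it was -0.15 with an SE of 0.25 (edgeR FDR 0.641), and 3 heifers had more while 8 had less. The median over all tested miRNAs was -0.06. Thus 0 of the 2 arms passed in edgeR, and the unadjusted p values were 0.428 for miR-126-5p and 0.540 for miR-126-3p, whereas 35.4% of the tested miRNAs passed. DESeq2 and limma-voom called neither arm, against 85 and 73 of the 195 tested miRNAs. The 95% intervals of the fold-change were 0.636 to 1.22 for miR-126-5p and 0.626 to 1.29 for miR-126-3p. The data are compatible with mean changes within these bounds, and the intervals set no limit of detection. With library totals in place of TMM the log2 fold-changes were -0.38 and -0.36, with the median of all tested miRNAs at -0.25. Without a block they were -0.04 for both arms (edgeR FDR 0.906 and 0.912). In plasma, the number of cells that release a miRNA and the release per cell cannot be told apart.

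The ratio of the arms needs no scaling, since both are counted in the same library. miR-126-5p outnumbered miR-126-3p in all 22 libraries. On Day 60 there were 7.45 reads of 5p per read of 3p in heifer 17, the lowest, 11.2 at the median and 18.6 in heifer 26, the highest. On Day 0 the ratio was 7.88 in heifer 32, the lowest, 12.6 at the median and 14.2 in heifer 28, the highest. The ranges overlapped, and 20 of the 22 ratios lay between 7.88 and 14.2. Adapter ligation favours some small RNA sequences over others, so the ratio is one of reads and not of molecules, but the same 2 sequences were compared in every library.

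Expressed as a share, the part of miR-126 reads that came from miR-126-3p was 8.13 ± 1.62% on Day 60 against 7.89 ± 1.47% on Day 0 (SD, n = 11 each). In the shallowest library, heifer 17 on Day 60, the share was 11.8% with a 95% Wilson interval of 10.3 to 13.6%, and in heifer 32 on Day 0 it was 11.3% (11.0 to 11.5%). At the low end, heifer 26 on Day 60 had a share of 5.11% (4.97 to 5.26%). The counting SE of the log2 ratio was at most 0.116, in heifer 17 on Day 60, and its SD between libraries, which also holds differences between animals and preparations, was 0.32 on Day 60 and 0.27 on Day 0. These intervals cover counting error only, since reads amplified by PCR are not independent molecules. The ratio of miR-451 to miR-23a was 21.6 in heifer 17 on Day 60 and 13.4 in heifer 32 on Day 0, the libraries with the largest 3p share. It was higher still in heifers 14 and 31 on Day 60, at 22.5 and 27.7, whose 3p shares were 8.2% and 7.57%, and the part of red cell RNA in the share was not tested.

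**Figure D2:**
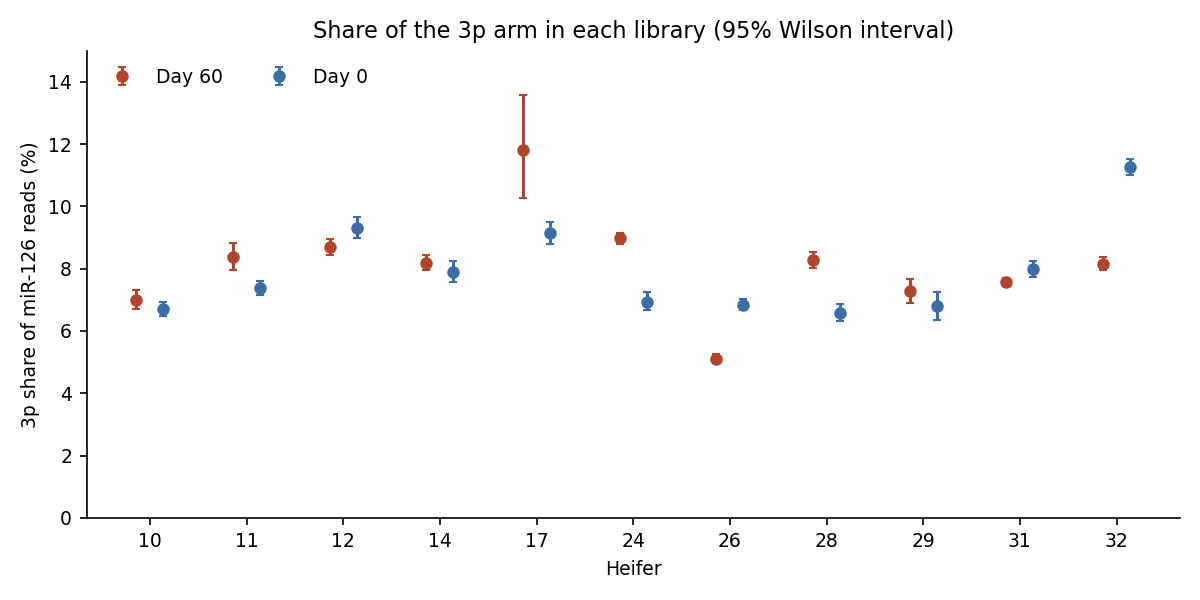
Share of miR-126-3p among the reads of both miR-126 arms, in percent, for each heifer on Day 60 (left point) and Day 0 (right point), with 95% Wilson intervals. The other libraries lie between 6.59 and 9.31%, and the exceptions are heifer 17 on Day 60 at 11.8%, heifer 26 on Day 60 at 5.11% and heifer 32 on Day 0 at 11.3%.

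No shift of the arm ratio between the days was detected. The ratio was higher on Day 60 in 4 of 11 heifers and lower in 7. The mean within-heifer difference in log2(5p/3p) was -0.04 ± 0.31 (SD, n = 11; exact sign-flip permutation test, two-sided p = 0.671). Its interval, from inverting that test, corresponds to a ratio on Day 60 of 0.842 to 1.13 times that on Day 0. The largest differences went both ways: the ratio was 11.2 on Day 60 against 7.88 on Day 0 in heifer 32 and 18.6 against 13.6 in heifer 26, but 7.45 against 9.94 in heifer 17 and 10.1 against 13.4 in heifer 24. Reads of each day summed over heifers gave a difference of the opposite sign, 0.0552, which weights the deep libraries most.

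The levels of the 2 arms followed each other from heifer to heifer. Levels were taken as log2 of TMM-normalised reads after adding 1, and 3 relations were computed. Pearson's r across the 11 heifers on Day 60 was 0.936 (permutation p = 2e-05, adjusted 3e-05), and Spearman's rho was 0.927 (permutation p = 0.00011, adjusted 0.000165). The Day 0 values were an r of 0.882 (permutation p = 0.0003, the same after adjustment) and a rho of 0.818 (permutation p = 0.00325, the same after adjustment). For the within-heifer change, an r of 0.926 (permutation p = 2e-05, adjusted 3e-05) and a rho of 0.964 (permutation p = 2e-05, adjusted 6e-05) were found. Without the 2 heifers farthest from the median of miR-126-5p, r was 0.851 on Day 60 (without heifers 11 and 29), 0.797 on Day 0 (without heifers 12 and 29) and 0.866 for the change (without heifers 24 and 28). Both arms share the scaling factor of their library. With library totals, which both arms share as well, r was 0.937, 0.900 and 0.942. The part of a shared factor in r was not tested. Both arms changed in the same direction in 9 of 11 heifers, and the exceptions were heifers 12 and 32, in which miR-126-5p moved by less than 0.02 on the log2 scale.

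**Figure D3:**
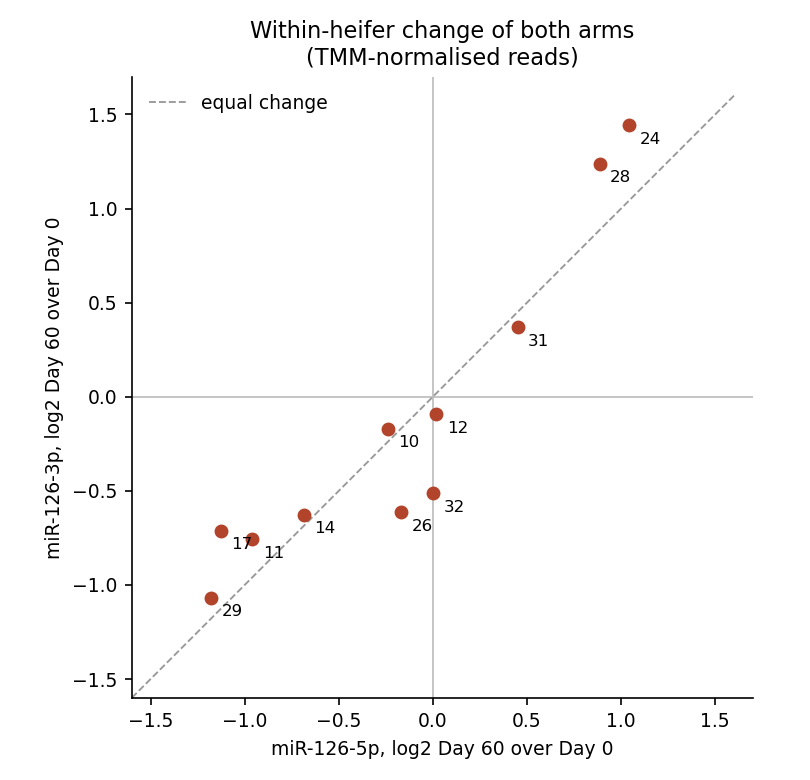
Change of miR-126-3p (vertical axis) against that of miR-126-5p (horizontal axis), each as log2 of Day 60 over Day 0 on TMM-normalised reads, with 1 labelled point per heifer and a dashed line of equal change. Points lie along the line, from heifer 29 at -1.18 for miR-126-5p and -1.07 for miR-126-3p to heifer 24 at 1.04 and 1.44.

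Other hairpins show how much an arm ratio can move in these libraries. Both arms passed the filter for 12 hairpins, of which 10, miR-126 included, were led by 5p in the mean log2 ratio over all libraries. One of the 10, miR-1388, was near balance, with a geometric mean of 5p over 3p of 1.08 on Day 60 and 0.968 on Day 0. Of the 11 other hairpins 2 (18.2%) passed the exact sign-flip test after adjustment over the 12, both towards 5p. These were miR-21, whose 5p arm is abundant in most cell types, and miR-423. The log2(5p/3p) of miR-21 was 5.37 ± 0.51 on Day 60 and 4.68 ± 0.23 on Day 0 (SD, n = 11; higher in 10 of 11 heifers, exact sign-flip adjusted p = 0.0234). That of miR-423 was 1.53 ± 0.22 on Day 60 and 1.01 ± 0.26 on Day 0 (SD, n = 11; higher in 10 of 11 heifers, exact sign-flip adjusted p = 0.0234). A further 4, let-7a, miR-151, miR-425 and miR-6119, had an unadjusted p under 0.05 only. An edgeR model of both arms with an arm by day term called 7 of the 11, 5 towards 5p and 2 towards 3p, and did not call miR-126 (edgeR FDR 0.773). That model has a term for each library but does not pair the libraries of a heifer, unlike the sign-flip test.

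The within-heifer differences of miR-126 had an SD of 0.31, close to those of miR-423 (0.33) and miR-1388 (0.34). Without heifer 17 the SD was 0.30 for miR-126 and for miR-455, which was at 0.48 with all heifers. miR-425 had an SD of 0.91 with all heifers and of 0.49 without heifer 17, in which its difference was -2.90. The SD of miR-126 depended on depth as well, at 0.47 with every library thinned to the reads of the shallowest. The order of the hairpins by spread thus changed with heifer 17, and their arms differed in reads, the fewest in a library being 9 for miR-6119 and 1682 for miR-423. The hairpins nearest to miR-126 in the size of the ratio were let-7a, miR-425, miR-455 and miR-6119. The geometric mean of 5p over 3p was 11.5 on Day 60 and 11.8 on Day 0 for miR-126, 16.9 and 11.7 for let-7a, 12.5 and 18.1 for miR-425, 15.9 and 17.4 for miR-455, and 10.1 and 5.22 for miR-6119. let-7a-5p is encoded at several loci, so its ratio does not belong to a single hairpin. Whether the difference of miR-126 is smaller than that of any other hairpin was not tested.

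**Figure D4:**
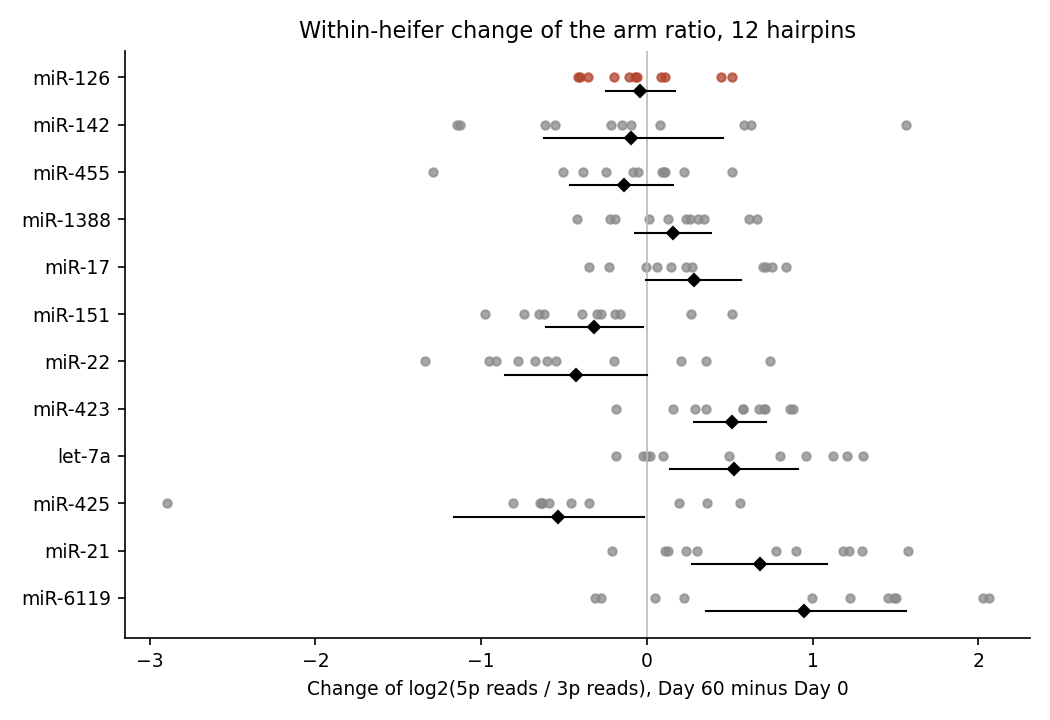
Change of log2(5p reads/3p reads) within heifers, Day 60 minus Day 0, for the 12 hairpins with both arms tested, ordered by the size of the mean difference. Coloured or grey points are heifers, diamonds are means, and black lines are 95% intervals from the exact sign-flip test. The points of miR-126 lie around 0 with a mean of -0.04, while miR-21 has a mean of 0.68.

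A heifer with more miR-126 on Day 0 did not detectably have more on Day 60. Of 3 relations between the days over 11 heifers, that of miR-126-5p had an r of 0.523 (permutation p = 0.0981, adjusted 0.247) and a rho of 0.3 (permutation p = 0.371, adjusted 0.468). That of miR-126-3p had an r of 0.385 (permutation p = 0.247, the same after adjustment) and a rho of 0.245 (permutation p = 0.468, the same after adjustment). Without heifers 12 and 29, r was 0.0113 for miR-126-5p and -0.366 for miR-126-3p. The log2 arm ratio had an r of 0.441 (permutation p = 0.183, adjusted 0.247) and a rho of 0.4 (permutation p = 0.228, adjusted 0.468). Leaving out heifers 12 and 32 gave an r of 0.647.

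Blood cell miRNAs were set beside miR-126, since platelets are a known source of it. Among all 195 tested miRNAs 35.4% passed in edgeR, with 17.4% higher and 17.9% lower. Of the same 195, 92 had an unadjusted p under 0.05, DESeq2 called 85 and limma-voom called 73. Of 5 tested platelet miRNAs (miR-223, miR-191, miR-24-3p, miR-197 and miR-21-5p) 0 passed in edgeR, 1 had an unadjusted p under 0.05, DESeq2 called 1 and limma-voom called 0. A further platelet miRNA, miR-199a-3p, was below the filter and had no read in at least 1 library. miR-199c, which is not in the list, averaged 3366 RPMM on Day 60 and 4544 on Day 0. How reads were divided between the miR-199 names was not tested. The summed level of the list was 35940 to 87791 RPMM on Day 60 and 39052 to 81471 RPMM on Day 0. miR-191, at a mean of 33808 RPMM on Day 60, and miR-21-5p held most of this sum. miR-21-5p is abundant in most cell types, so the list does not measure platelet RNA alone. miR-21-5p had the smallest p of them, with 24166 ± 7058 RPMM on Day 60 and 21384 ± 4590 on Day 0 (SD, n = 11; log2 fold-change 0.35, edgeR FDR 0.0700). Of 5 red cell miRNAs, miR-451 and miR-16b were higher on Day 60 (log2 fold-change 0.79 and 0.68, edgeR FDR 0.0425 and 0.0487). The erythroid miR-144 and miR-486 had log2 fold-changes of 0.46 and 0.43 (edgeR FDR 0.171 and 0.236), miR-363 was at -0.00274 (edgeR FDR 0.987), and the summed level was 131881 to 384626 RPMM on Day 60 and 73222 to 344009 RPMM on Day 0. DESeq2 called 1 of these 5 and limma-voom 2. Of 6 leukocyte miRNAs, miR-155, miR-150 and miR-142-5p were higher (log2 fold-change 1.21, 0.80 and 0.51, edgeR FDR 0.00837, 0.0166 and 0.0166), while miR-142-3p, miR-146a and miR-342 did not pass (edgeR FDR 0.0553, 0.0949 and 0.180), and the summed level was 34160 to 69042 RPMM on Day 60 and 32328 to 47194 RPMM on Day 0. DESeq2 called 5 of these 6 and limma-voom 3.

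The change of miR-126 within heifers had no detectable relation to that of these lists. Against the mean change of the platelet list, r was -0.338 for miR-126-5p (permutation p = 0.308) and -0.170 for miR-126-3p (permutation p = 0.619). Against the red cell list, r was -0.378 (permutation p = 0.250) for miR-126-5p and -0.276 (permutation p = 0.419) for miR-126-3p. Against the leukocyte list, r was -0.301 (permutation p = 0.367) and -0.0312 (permutation p = 0.926). The adjusted p over the 6 relations was 0.628 or more, and rho ran from -0.345 to -0.200 with a permutation p of at least 0.299 and an adjusted p of 0.558 for each. Without the 2 heifers farthest from the median of the list, r lay between -0.187 and 0.0817. Relations of this size were not detectable with 11 heifers. Of the other cell types, the smooth muscle miR-143 was higher on Day 60 (log2 fold-change 1.63, edgeR FDR 0.00866), miR-145 did not pass (log2 fold-change 0.42, edgeR FDR 0.157), and their summed level was 10478 to 215306 RPMM on Day 60 and 10068 to 24377 RPMM on Day 0. The liver miRNAs miR-192 and miR-194 did not pass either (log2 fold-change -0.18 and -0.06, edgeR FDR 0.485 and 0.790), and miR-122 was below the filter. With miR-122 included, the summed level of the liver list was 22007 to 78354 RPMM on Day 60 and 34019 to 81789 RPMM on Day 0.

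Other miRNAs known to act in blood vessel growth moved in both directions around the miR-126 arms. Of 23 such miRNAs, 22 were tested, 8 were higher on Day 60, 4 were lower and 10 did not pass. Among all tested miRNAs 17.4% were higher and 17.9% were lower. The median log2 fold-change of the list was 0.02, against -0.06 for all tested miRNAs. The list was chosen with earlier results of these data known, and several of its higher miRNAs share a cluster. Its counts were not tested against those of all tested miRNAs. With library totals the list gave 2 higher and 7 lower, where the 195 tested miRNAs gave 11 higher and 57 lower. Without heifer 10 or without heifer 28 the list gave 2 higher, where the 195 gave 21 and 17 higher.

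The higher miRNAs of the list were 5 members of the miR-17-92 cluster, with miR-16b, miR-101 and let-7f. The log2 fold-change of miR-19a reached 1.13 with an SE of 0.27 (edgeR FDR 0.0108), at 569 ± 246 RPMM on Day 60 and 298 ± 154 on Day 0 (SD, n = 11). miR-19b, miR-20a, miR-18a and miR-17-5p were higher by 1.06, 0.77, 0.66 and 0.63 on the log2 scale (edgeR FDR 0.0108 to 0.0280), while miR-92a, the member of the cluster known to restrain vessel growth in mouse, did not pass (log2 fold-change -0.12, edgeR FDR 0.541). let-7f and miR-101 had log2 fold-changes of 0.86 and 0.80 (edgeR FDR 0.0334 and 0.0238). The lower miRNAs were miR-23a, miR-27a-3p, miR-210-3p and miR-132. miR-23a and miR-27a-3p, known to promote sprouting in mouse, had log2 fold-changes of -1.18 and -0.82 (edgeR FDR 0.00837 and 0.0137). miR-24-3p, encoded in the same cluster, did not pass (log2 fold-change -0.15, edgeR FDR 0.758). Its level was 1464 ± 3095 RPMM on Day 60 and 828 ± 224 on Day 0 (SD, n = 11), so its Day 60 SD exceeded its mean. The hypoxia miRNA miR-210-3p, counted under its human name, was at 330 ± 109 RPMM on Day 60 and 622 ± 132 on Day 0 (SD, n = 11; log2 fold-change -0.77, edgeR FDR 0.0125). miR-132, which endothelial cells make in response to growth factors, had a log2 fold-change of -0.55 (edgeR FDR 0.0263). Of the rest, miR-10b, miR-296-3p, miR-130a and miR-15a had the smallest p (log2 fold-change -0.56, -0.45, -0.39 and 0.37, edgeR FDR 0.0894, 0.0915, 0.143 and 0.143). The endothelial miR-221 and miR-222, which restrain KIT in human cells, were at 0.14 and -0.11 (edgeR FDR 0.486 and 0.720).

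**Figure D5:**
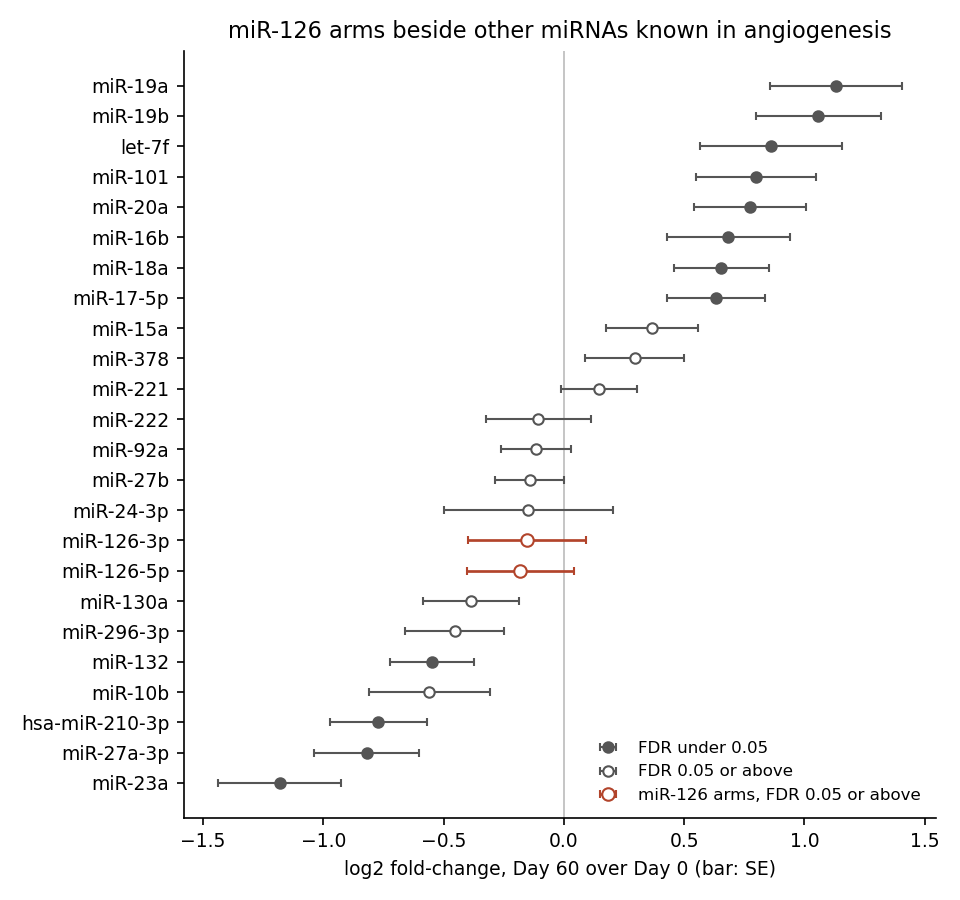
log2 fold-change of Day 60 over Day 0 with its SE from edgeR for the 22 tested angiogenesis miRNAs and, coloured, the 2 miR-126 arms. Filled points had an FDR under 0.05. The miR-126 arms, at -0.18 and -0.15, lie between 8 higher and 4 lower miRNAs, the extremes being miR-19a at 1.13 and miR-23a at -1.18.

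The miRNA most like miR-126-5p across heifers was miR-126-3p. Likeness was measured as Pearson's r of log2 TMM-normalised reads with miR-126-5p, once over the 11 within-heifer changes and once over the 22 libraries as deviations from the mean of their day. Among 194 tested miRNAs miR-126-3p ranked 1 by both measures, at 0.926 over the changes and 0.919 over the libraries, while the median miRNA was at 0.01 and 0.0045. Next over the changes came miR-1468 at 0.765, let-7e at 0.736, miR-450b at 0.706, miR-10b at 0.689 and miR-154c at 0.670. Over the libraries they were miR-1468 at 0.845, miR-411a at 0.791, miR-10b at 0.674, miR-432 at 0.655 and miR-195 at 0.653. miR-1468 and miR-10b were among these 5 by both measures. These values describe the same libraries, chosen as the highest of many, and carry no test. miR-1468 averaged 821 RPMM on Day 60 and 1317 on Day 0 and did not pass the test between the days (log2 fold-change -0.53, edgeR FDR 0.0553). Nor did miR-10b, a miRNA of the HOX clusters, pass, at 30820 RPMM on Day 60 and 49523 on Day 0 (edgeR FDR 0.0894).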

How the data were processed

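The authors sequenced TruSeq small RNA libraries of plasma, assigned reads with sRNAbench (Bowtie 0.12.9, bosTau4, miRBase) with a single mismatch allowed, and deposited read counts per mature miRNA, which were used here. They also deposited RPMM, a normalised score computed apart for the bovine names and the human homologues. RPMM here are scaled to all miRNA reads of a library. The ratio of the arms in the counts matched that in the deposited RPMM. Levels differed slightly with the total used, as in heifer 17 on Day 60, with 4314 RPMM of miR-126-5p here against 4335 deposited. The spiked-in cel-miR-39 was not used here. Tests used edgeR 4.0.16 in R 4.3.3 (quasi-likelihood, TMM, heifer as a block, Benjamini-Hochberg) on miRNAs that exceeded 25 RPMM in over 8 libraries on at least 1 day. Alternatives used limma 3.58.1 and DESeq2 1.42.0, and other steps scipy 1.17.1, numpy 2.4.6 and pandas 2.3.3 under Python 3.11.15, with figures by matplotlib 3.10.9.

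Libraries were grouped by day and paired by the animal in the labels. After subtracting the day means, the libraries of a heifer correlated at a mean r of 0.141 across the 195 miRNAs, against -0.00628 for different heifers. Sign-flip tests were exact over 2048 patterns, with a smallest p of 0.000977, and correlations used 100000 permutations, whose smallest p is 1e-05. Steps were tested on simulated data. Members and lists were chosen with earlier results of these data known. Named miRNAs were the list members past the threshold and up to 4 others with the smallest p, the 5 most like miR-126-5p by each measure, and hairpins past the threshold or nearest in arm ratio. Outside this rule, and after their values were seen, miR-221, miR-222, miR-92a, miR-199c, miR-1388 and miR-151 were named.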

Additional observations from a re-analysis of the deposited data

How the results depend on the processing

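The log2 fold-changes of both arms stayed negative and did not pass the threshold under any of the 11 other settings, from -0.38 to -0.04 for miR-126-5p (FDR 0.220 to 0.906) and from -0.36 to -0.04 for miR-126-3p (FDR 0.306 to 0.912). The fit without the replicate block gave the values nearest to 0 and changed no call of the arms. Leaving out each heifer gave -0.30 to -0.09 for miR-126-5p and -0.31 to -0.10 for miR-126-3p. Over all tested miRNAs the median was -0.06 with TMM, -0.25 with library totals, -0.22 with the upper quartile and 0.10 with no filter, and relative to that median miR-126-5p was at -0.12, -0.13, -0.12 and -0.20, and miR-126-3p at -0.09, -0.11, -0.10 and -0.18. With heifers left out these relative values ran from -0.26 to 0.00125 for miR-126-5p and from -0.27 to 0.0222 for miR-126-3p, lowest without heifer 24 and positive without heifer 29.

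The arm ratio difference was -0.10 to -0.0035 with each heifer left out, was -0.07 with libraries thinned to the shallowest (SD 0.47, exact sign-flip p = 0.621), and turned to 0.0552 with pooled reads, which have no test. Dropping the pairing, the replicate block, cannot move the mean and gave a permutation p of 0.753. The other hairpins gave 2 calls by the sign-flip test and 7 by the edgeR arm model, which does not pair the libraries of a heifer. The relations were rerun with library totals and with each heifer left out. Those of the arms passed in all of these, with r from 0.888 to 0.968 on Day 60, 0.841 to 0.936 on Day 0 and 0.899 to 0.951 for the change. The relation between the days ran from 0.307 to 0.651 for miR-126-5p, from -0.0691 to 0.592 for miR-126-3p, lowest without heifer 29, and from 0.333 to 0.597 for the arm ratio, with no pass in these reruns. With library totals 3 relations to blood cell lists changed sign: miR-126-3p with platelets (0.13) and with leukocytes (0.241), and miR-126-5p with leukocytes (0.0113). With heifers left out, r was -0.449 to -0.144 and -0.256 to -0.0516 for platelets, -0.575 to -0.201 and -0.409 to -0.184 for red cells, and -0.459 to -0.0881 and -0.181 to 0.127 for leukocytes, in each case miR-126-5p before miR-126-3p. Of these, miR-126-3p with leukocytes turned positive, at 0.0223, 0.0271, 0.127 and 0.0637 without heifers 11, 14, 17 and 31. None passed.

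Of the angiogenesis list, 8 higher and 4 lower became 2 and 7 with library totals, 4 and 6 under upper quartile scaling, and 5 and 1 with no filter. With a heifer left out it was 2 to 8 higher and 3 to 7 lower: 2 higher without heifer 10 or 28, 3 without heifer 11, 14 or 29, 5 without heifer 17, and 7 lower without heifer 32. All calls numbered 69, and ran from 35 to 97 with a heifer left out: 44, 43, 35 and 97 without heifers 10, 11, 28 and 32. The split of higher to lower was 34 to 35, against 11 to 57 with library totals, 21 to 58 under upper quartile scaling, 35 to 20 with scaling to miR-128 and 37 to 17 with no filter. The cause was not tested. The spread of Day 60 levels without heifer 29 and that of the hairpins without heifer 17 were chosen after seeing the data. The depth of the Day 60 library of heifer 17 limits its arm share to the interval given.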
